A study of Rattus norvegicus with 4 samples.

Results

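Reactive astrocyte genes are genes that astrocytes, a major class of glia in the brain, raise when tissue is injured, inflamed or infected. The list followed here has 37 members and covers intermediate filaments, secreted acute-phase proteins, complement, surface and signalling proteins, and matrix genes. A member was taken from a probe whose only gene symbol was that member's, with the probe of the highest mean over the arrays where a gene had several, which gave 31 measured members of 18166 measured genes. Of the other 6, C4a, Fbln5 and Ugt1a1 had only probes shared with other genes, and Cd109, Saa3 and Thbs1 were on no probe named here. A total of 28 of the 31 passed a filter on low signal, which kept 11790 genes whose highest value reached 5.83, the median of all values in the table. B3gnt5, Tgm1 and Mmp3 did not pass.

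The cells were primary cortical astrocytes of Sprague-Dawley rats aged 1 day (cerebral cortex), held for 2 days in a medium without serum, a step meant to remove microglia and meningeal cells. The 4 groups were SHP siRNA with interferon-γ (IFN-γ) and a compound the labels call GW, control siRNA with IFN-γ and GW, control siRNA with IFN-γ, and control siRNA with no treatment. All 4 were transfected, and treatment lasted 3 h. Each group was 1 culture on 1 array, so no difference below has a replicate check, no test between conditions was possible, and a condition cannot be told apart from a single culture or array. No culture with SHP siRNA but no GW, or with GW but no IFN-γ, was analysed here.

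Reactive astrocytes thicken their filament network, secrete acute-phase proteins and complement, and remodel the matrix around a lesion. In mouse, a shared set of genes is called pan-reactive, one induced by lipopolysaccharide is called A1 and one induced by ischaemia is called A2. Microglial interleukin-1α, TNF and C1q can induce the A1 set in mouse, and STAT3 is a main driver of filament gene induction. IFN-γ acts through a surface receptor coupled to JAK kinases. SHP, the product of Nr0b2, is a nuclear receptor without a DNA-binding domain that represses other transcription factors.

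Values are array signals taken as log2, and a difference of 1 is 2-fold. Array medians over 29489 probes ran from 5.79 to 5.87. Nr0b2 stood at 3.45 with SHP siRNA against 5.20 with control siRNA under the same treatment, both below the table median, in a range where array background is not known. Of 10 measured astrocyte markers, 9 passed the filter, among them Aqp4, Slc1a3, Gja1 and S100b, while Aldh1l1 and Glul were on no probe named here. All 17 measured microglia markers also passed it, with Tyrobp at 10.24 and C1qa at 10.48 in the untreated culture, so these markers were read above the table median despite the depletion step. Of the other measured markers, 10 of 12 meningeal and fibroblast, 7 of 8 oligodendrocyte lineage, 3 of 8 neuron and 2 of 4 endothelial ones passed. Stmn2, on the neuron list, read 11.68 to 12.04. In a bulk culture, fewer cells of a type and less RNA per cell cannot be told apart.

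The RefSeq promoter table for rat (GRCr8) held 32 of the 37 members. The upstream sequences below belong to the 4 members that reached 2-fold in one of the main comparisons, and each covers the 250 bases before the transcription start, written 5′ to 3′ on the gene's strand. Capitals mark matches, on either strand, to any of 5 motifs: GAS (TTCNNNGAA, the interferon-γ-activated sequence), the interferon-stimulated response element (TTTCNNTTTC), AP-1 (TGANTCA), the κB motif and the CArG box. The Ptx3 sequence lies at chr2:152797313-152797562 on the plus strand, Srgn at chr20:31000104-31000353 on the minus strand, S1pr3 at chr17:13946014-13946263 on the minus strand and Slc10a6 at chr14:6385325-6385574 on the plus strand.
Ptx3: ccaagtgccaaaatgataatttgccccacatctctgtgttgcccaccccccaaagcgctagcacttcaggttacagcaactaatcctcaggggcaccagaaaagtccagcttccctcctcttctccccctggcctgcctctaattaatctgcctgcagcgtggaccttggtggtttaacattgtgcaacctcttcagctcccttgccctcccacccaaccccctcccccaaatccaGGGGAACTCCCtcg
Srgn: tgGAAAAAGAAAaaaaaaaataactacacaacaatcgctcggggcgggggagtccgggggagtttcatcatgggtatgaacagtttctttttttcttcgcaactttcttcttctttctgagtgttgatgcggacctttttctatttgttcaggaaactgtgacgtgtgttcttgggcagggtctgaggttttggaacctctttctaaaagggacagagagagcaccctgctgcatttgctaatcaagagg
S1pr3: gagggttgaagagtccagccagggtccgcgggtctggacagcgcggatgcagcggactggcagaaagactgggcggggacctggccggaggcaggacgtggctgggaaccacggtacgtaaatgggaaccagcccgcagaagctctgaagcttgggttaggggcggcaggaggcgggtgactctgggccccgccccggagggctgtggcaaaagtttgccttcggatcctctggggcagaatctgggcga
Slc10a6: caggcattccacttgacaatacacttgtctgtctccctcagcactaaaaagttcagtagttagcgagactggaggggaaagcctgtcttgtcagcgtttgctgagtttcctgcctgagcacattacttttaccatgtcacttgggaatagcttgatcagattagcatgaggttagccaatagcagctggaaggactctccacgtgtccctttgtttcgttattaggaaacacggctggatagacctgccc

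The Ptx3 sequence holds a pair of overlapping κB matches between 14 and 4 bases before the start. In Srgn the capitals mark a match to the interferon-stimulated response element on the opposite strand, 248 to 239 bases before the start. S1pr3 and Slc10a6 hold the letters of none of the 5 motifs in this window. Over the 32 members with a sequence, 4 held a κB match (12.5%), against 3.54% of all 33469 promoters of the same length. GAS was matched in 4 (12.5%, against 7.67%), AP-1 in 4 (12.5%, against 6.34%), the interferon-stimulated response element in 1 (3.12%, against 3.41%) and the CArG box in 0 (against 1.5%). Besides Ptx3, the κB matches were in Lcn2, Steap4 and Vim. A match of letters is a description of the sequence and not evidence of binding.

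Few members reached 2-fold, yet fewer members than genes in general were flat. Over the 4 arrays, 17 of 31 measured members had a range under 0.5 (54.8%), against 73.8% of the 11790 genes past the filter. The 17 include B3gnt5, Tgm1 and Mmp3, which did not pass that filter. Of the 31 measured members, 20 stayed under 1.5-fold in all 6 differences among the arrays, and 27 stayed under 2-fold in the 3 main ones. The share of all genes that stayed under these limits throughout was not computed. In the 3 main differences taken singly, 1.9% (IFN-γ), 1.91% (GW) and 0.407% (SHP siRNA) of all genes past the filter reached 2-fold. The 4 that reached 2-fold there were the pentraxin gene Ptx3, the proteoglycan gene Srgn, the sphingosine-1-phosphate receptor gene S1pr3 and the transporter gene Slc10a6. Over the 4 arrays, 6 of 31 members had a range of at least 1 (19.4%), against 540 of the 11790 genes (4.58%). The median range was 0.46 over members and 0.34 over the 11790 genes. The plot of array signals shows these 6.

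**Figure D1:**
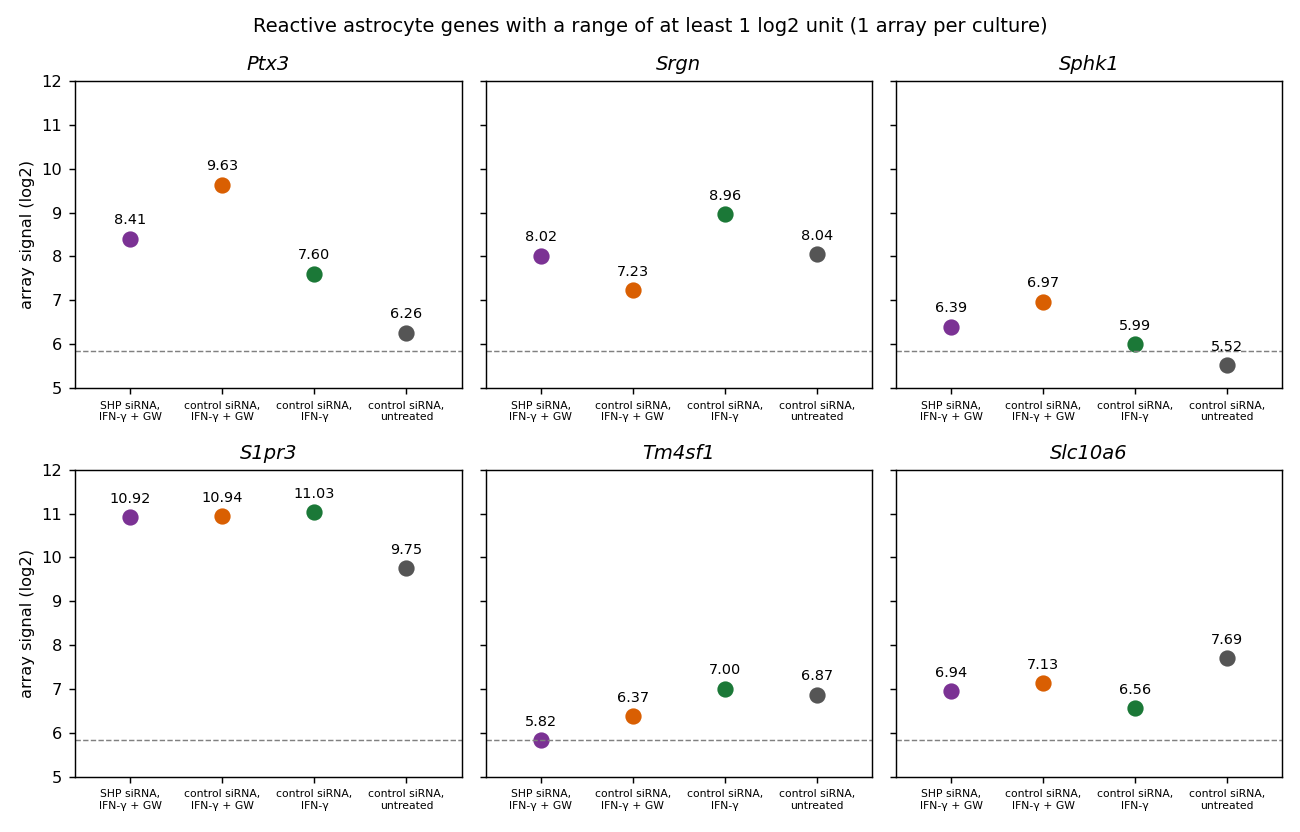
Array signal (log2, vertical axis) of the 6 members with a range of at least 1, 1 point per culture, with the table median of 5.83 dashed. Ptx3 is highest at 9.63 with IFN-γ and GW, Srgn is lowest there at 7.23, and S1pr3 stands at 10.92 to 11.03 in the 3 treated cultures and 9.75 untreated. Heights are not comparable between genes.

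IFN-γ against no treatment asks how the cytokine alone moves these genes. With IFN-γ, 2 members were at least 2-fold higher, Ptx3 and S1pr3, and 1 was at least 2-fold lower, Slc10a6. That is 3 of 31, where 1.9% of all genes past the filter reached 2-fold in either direction (1.61% higher, 0.288% lower). The median difference over the 31 members was -0.04, the same as over all genes (-0.04), with 14 members above 0 and 17 below.

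Adding GW to IFN-γ asks what the compound does under the cytokine. It went with 1 member at least 2-fold higher, Ptx3, and 1 at least 2-fold lower, Srgn. All genes past the filter gave 1.91% in either direction (0.958% higher, 0.95% lower). The median was -0.10 over members and -0.05 over all genes. Sphk1 at 0.98 and Mmp9 at -0.99 lay just inside the threshold.

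Under IFN-γ and GW, the SHP siRNA culture set against its control asks what the knockdown does to these genes. It left 0 members at least 2-fold higher and 1 lower, Ptx3, against 0.407% of all genes in either direction (0.144% higher, 0.263% lower). Members had a median of -0.06 and all genes 0.01. The members furthest from 0 after Ptx3 were Srgn at 0.79, Sphk1 at -0.58, Tm4sf1 at -0.55 and Emp1 at -0.53, and 7 of 31 members lay outside the middle 95% of all genes past the filter. One of the 7, B3gnt5 at -0.48, is itself below the table median on all 4 arrays, and 6 of the 28 members past the filter lay outside. In the IFN-γ and GW comparisons 5 of 31 lay outside it each time. Of 12 meningeal and fibroblast markers, 8 were above 0 with SHP siRNA, where 51.5% of all genes were, among them Postn at 1.43 and Aldh1a2 at 1.11. With GW, which uses the same array, 5 of the 12 were above 0 and 7 below, with a median of -0.09. Of all genes, 42.1% were above 0 with GW. Postn stood at -0.77 and Aldh1a2 at -1.21 there. Against IFN-γ alone, the SHP siRNA culture had 6 of the 12 above 0 and 6 below, with Postn at 0.65 and Aldh1a2 at -0.10. Of all genes, 42.7% were above 0 there. The 12 markers ran from -0.14 (Pdgfra) to 0.73 (Dcn, which did not pass the filter), and 4 reached 1.5-fold, all higher. For SHP siRNA against control siRNA, the log2 of their summed signal was 12.36 with SHP siRNA against 12.03 with control siRNA. The astrocyte markers summed to 14.02 and 13.71 in the same cultures. The part of these markers in the member differences was not tested. The GW and SHP siRNA differences share the array with control siRNA, IFN-γ and GW, and the GW and IFN-γ differences share the IFN-γ array, so an error of a shared array enters both with opposite signs.

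In the other 3 differences among the arrays, 9.68%, 9.68% and 3.23% of the 31 measured members reached 2-fold, in the order given here. With IFN-γ and GW against no treatment, 3 members were at least 2-fold higher, Ptx3, Sphk1 and S1pr3, and 0 lower, where 2.49% of all genes reached 2-fold (1.65% higher, 0.84% lower). With SHP siRNA and both agents against no treatment, Ptx3 and S1pr3 were at least 2-fold higher and Tm4sf1 lower, where all genes gave 2.48% (1.59% higher, 0.882% lower). With SHP siRNA and both agents against IFN-γ alone, 0 were higher and 1 lower, Tm4sf1, where all genes gave 0.857% (0.45% higher, 0.407% lower).

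**Figure D2:**
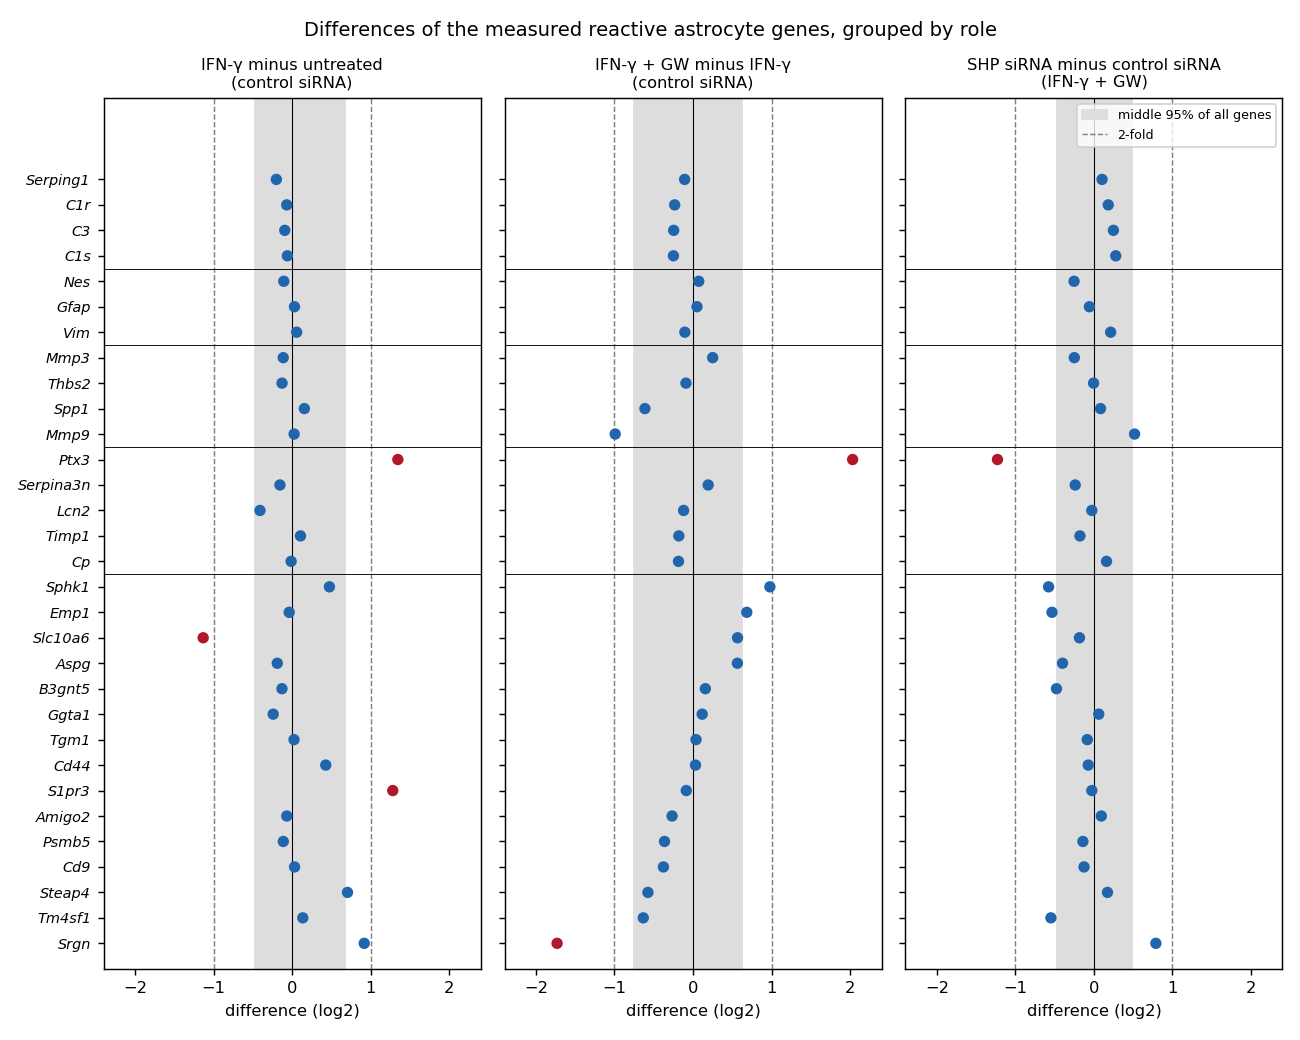
Difference (log2, horizontal axis) of each of the 31 measured members in the 3 main comparisons, in blocks by role from complement genes at the top to surface, transport and signalling genes at the bottom. The grey band is the middle 95% of all genes past the filter, dashed lines are 2-fold, and red points reach 2-fold: 3 with IFN-γ, 2 with GW added and 1 with SHP siRNA.

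**Figure D3:**
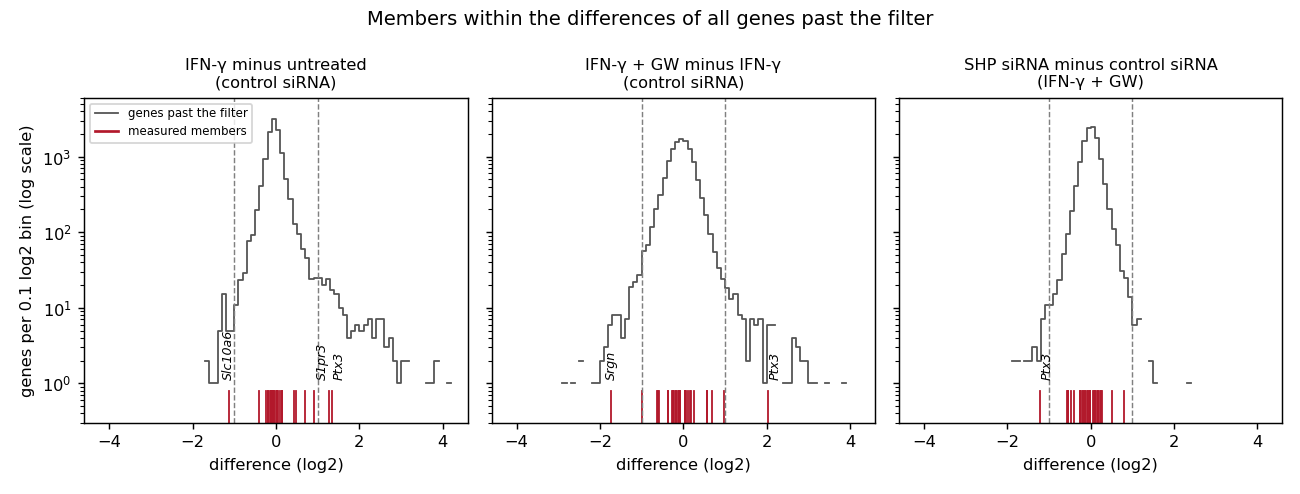
Number of genes per 0.1 log2 of difference (log scale) among 11790 genes past the filter, with a red tick for each measured member, gaps in the line where no gene falls, the dashed lines at 2-fold and the members beyond them named. Most ticks lie in the centre of each distribution, and Ptx3 lies in a tail in all 3 panels.

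The filament genes differed little, and Vim is read at the top of the scale. Gfap, the filament protein that marks astrocytes, read 12.06 with SHP siRNA, IFN-γ and GW, 12.11 with IFN-γ and GW, 12.06 with IFN-γ and 12.03 untreated. These 4 values span 0.08, so no culture stood apart. Vim, which encodes vimentin, ran from 13.20 with IFN-γ and GW to 13.41 with SHP siRNA, the highest value in the table, and compression of the scale there was not tested. Nes, the filament gene of neural progenitors that reactive astrocytes express again, ran from 8.22 with SHP siRNA to 8.51 untreated. All 3 stayed under 1.5-fold in all 6 differences.

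Ptx3 was the member that differed most. It encodes a long pentraxin, a secreted pattern recognition protein that binds complement and matrix. Its signal was 8.41 with SHP siRNA, IFN-γ and GW, 9.63 with IFN-γ and GW, 7.60 with IFN-γ and 6.26 untreated, all above the table median. The culture with control siRNA, IFN-γ and GW was the highest and the untreated one the lowest. IFN-γ stood 2.54-fold above no treatment, the 114th highest of 11790 differences. GW added to IFN-γ stood a further 4.09-fold above IFN-γ alone, the 26th highest. With both agents and control siRNA the signal was 10.4-fold above the untreated culture. SHP siRNA was 2.34-fold below control siRNA under both agents, the 12th lowest, and still 4.44-fold above the untreated culture and 1.75-fold above IFN-γ alone.

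The other secreted members differed less. Lcn2, a secreted lipocalin that binds iron-carrying siderophores, read 11.65 with SHP siRNA, IFN-γ and GW, 11.67 with IFN-γ and GW, 11.79 with IFN-γ and 12.20 untreated. All 3 treated cultures were below the untreated one, by 0.41 to 0.56, less than 1.5-fold. Serpina3n, a serine protease inhibitor gene, ran from 8.77 to 9.0, and Cp, which encodes the copper-carrying ferroxidase ceruloplasmin, from 12.12 to 12.32. Timp1, an inhibitor of matrix metalloproteinases, was lowest with SHP siRNA at 10.99 and highest with IFN-γ at 11.35. The direction of Lcn2 was opposite to that of Ptx3 in the IFN-γ comparison, at -0.41 against 1.35.

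The complement members kept a narrow range. C3, the central component, read 12.33 with SHP siRNA, IFN-γ and GW, 12.08 with IFN-γ and GW, 12.32 with IFN-γ and 12.42 untreated. The proteases of the first component, C1r and C1s, and their inhibitor gene Serping1 followed the same order at the low end, each lowest with control siRNA, IFN-γ and GW. All 4 lay below 0 with IFN-γ (-0.20 to -0.06) and with GW (-0.25 to -0.11), and all 4 above 0 with SHP siRNA (0.10 to 0.28). Every one of these differences is inside the middle 95% of all genes, and after cyclic loess the GW difference of Serping1 was 0.01. Of all genes past the filter, 40.1% were above 0 with IFN-γ, 42.1% with GW and 51.5% with SHP siRNA. The GW and SHP siRNA differences share the array with control siRNA, IFN-γ and GW, whose error enters them with opposite signs. The probe shared by C4a and C4b, which carries the fourth component, ran from 7.30 with IFN-γ and GW to 7.78 with IFN-γ. Of 7 measured complement genes outside the list, 0 reached 2-fold in any main comparison. All 7 were below 0 with GW, from C3ar1, the receptor gene for the C3a fragment, at -0.70 to the factor B gene Cfb at -0.13. The 7 include C1qa, C1qb and C1qc (-0.60 to -0.46), which microglia express and which are also among the microglia markers.

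A receptor and a kinase of sphingosine-1-phosphate signalling both stood above the untreated culture. S1pr3, which encodes a receptor for this lipid, read 10.92 with SHP siRNA, IFN-γ and GW, 10.94 with IFN-γ and GW, 11.03 with IFN-γ and 9.75 untreated. The 3 treated cultures lay within 0.11 of each other and at least 2.25-fold above the untreated one, so the treated cultures differed little among themselves. Sphk1, the kinase that makes the lipid, read 6.39, 6.97 and 5.99 in the same 3 treated cultures and 5.52 untreated. Its highest value was with control siRNA, IFN-γ and GW, at a difference of 0.98 from IFN-γ alone and 1.45 from the untreated culture, whose value lies below the table median, so that fold is uncertain. After median centring the first of these was 1.06, past 2-fold.

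Srgn encodes serglycin, a proteoglycan of secretory granules that is abundant in blood-derived cells. Its signal was 8.02 with SHP siRNA, IFN-γ and GW, 7.23 with IFN-γ and GW, 8.96 with IFN-γ and 8.04 untreated. The IFN-γ culture was the highest and the culture with control siRNA, IFN-γ and GW the lowest, 3.32-fold below it and the 16th lowest of 11790 differences. SHP siRNA stood 1.73-fold above control siRNA under both agents and within 0.02 of the untreated culture. Most microglia markers moved beside it in the GW comparison, where 15 of 17 were below 0, Tyrobp (-1.22) and Ptprc (-1.16) by more than 2-fold. Cx3cr1 (0.68) and Tmem119 (0.21) were above 0, as were 42.1% of all genes. The log2 of the markers' summed signal was 13.24 with IFN-γ and GW against 13.75 with IFN-γ. With IFN-γ alone the markers moved the other way from Srgn, with 16 of 17 below 0, Cx3cr1 (-1.23) by more than 2-fold. Only Ptprc (0.23) was above 0, where 40.1% of all genes were. The sums were 13.75 with IFN-γ and 14.10 untreated, while Srgn was 0.92 above. With SHP siRNA 14 of 17 were above 0, against 51.5% of all genes, and the sum was 13.40 against 13.24 with control siRNA. All 17 stayed above the table median in all 4 cultures, and the part of microglia in the Srgn differences was not tested.

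Slc10a6, a sodium-dependent transporter of sulphated steroids, was the only member at least 2-fold lower with IFN-γ. It read 6.94 with SHP siRNA, IFN-γ and GW, 7.13 with IFN-γ and GW, 6.56 with IFN-γ and 7.69 untreated. The untreated culture was the highest, and the IFN-γ culture was 2.19-fold below it, the 29th lowest of 11790 differences. With GW added the gene stood 0.57 above IFN-γ alone. Tm4sf1, which encodes a small membrane protein related to tetraspanins, read 5.82 with SHP siRNA, IFN-γ and GW, 6.37 with IFN-γ and GW, 7.0 with IFN-γ and 6.87 untreated. Its lowest culture was SHP siRNA, 2.27-fold below IFN-γ alone and just under the table median, so the fold is uncertain. It reached 2-fold in none of the main comparisons.

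The remaining surface and signalling members gave smaller differences. Steap4, a metalloreductase gene, read 8.63 with SHP siRNA, IFN-γ and GW, 8.46 with IFN-γ and GW, 9.03 with IFN-γ and 8.33 untreated. IFN-γ alone was its high point, 1.63-fold above the untreated culture. Cd44, the receptor for hyaluronan, stood between 9.72 and 9.79 in the treated cultures and at 9.33 untreated. Emp1, a membrane protein gene, was highest at 9.37 with control siRNA, IFN-γ and GW and between 8.69 and 8.84 in the other 3 cultures. Aspg, an asparaginase gene, was likewise highest there, at 7.14, and lowest with IFN-γ at 6.58. The tetraspanin gene Cd9 was lower in both cultures with GW (10.87 and 10.99) than in both without it (11.37 and 11.34). Psmb5, a catalytic subunit gene of the standard proteasome, showed the same split, at 7.69 and 7.83 with GW and 8.19 and 8.30 without. Neither Cd9 nor Psmb5 reached 1.5-fold in a main comparison.

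Members with a range under 0.5 made up the rest of that group. Amigo2, an adhesion protein gene, ran from 7.02 to 7.36, and Ggta1, a galactosyltransferase gene, from 7.79 to 8.03. B3gnt5, which builds glycolipids, and the transglutaminase gene Tgm1 stayed below the table median on all 4 arrays, at 4.73 to 5.20 and 5.36 to 5.44. The Ugt1a1 probe is shared by 8 genes of its locus and ran from 7.77 to 8.08.

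Among matrix genes Mmp9 differed most. It encodes gelatinase B, which cleaves basement membrane collagen, and read 7.0 with SHP siRNA, IFN-γ and GW, 6.49 with IFN-γ and GW, 7.48 with IFN-γ and 7.45 untreated. The culture with control siRNA, IFN-γ and GW was the lowest, 1.99-fold below IFN-γ alone, and SHP siRNA was 1.43-fold above it. Spp1, the secreted matrix protein osteopontin that microglia also express, read 8.42 and 8.34 in the SHP siRNA and control siRNA cultures with both agents, 8.95 with IFN-γ and 8.80 untreated. Thbs2, a thrombospondin gene, ran from 9.81 to 10.04, and the stromelysin gene Mmp3 stayed below the table median at 4.90 to 5.15. The probes that Fbln5, an elastic fibre protein gene, shares with Trip11 differed by at most 0.18 in the main comparisons. The lower microglia markers given for Srgn stood beside the lower Mmp9 and Spp1 with GW as well, and their part was not tested.

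Of 14 measured metalloproteinase and inhibitor genes outside the list, 2 were at least 2-fold higher with IFN-γ and 0 lower. Over all genes past the filter, 1.61% were higher and 0.288% lower. The 2 genes were Adamts4, an aggrecan-cleaving protease gene, at 1.69, and Mmp13, a collagenase gene, at 1.30 but below the table median on all arrays. With GW 0 were higher and 3 lower, namely Adamts4 at -1.68, Mmp12 at -1.08 and Mmp13 at -1.02. All genes gave 0.958% higher and 0.95% lower there. Adamts4 read 6.71 with IFN-γ and GW, against 8.40 with IFN-γ, and 6.71 untreated. With SHP siRNA 0 of 14 were at least 2-fold lower, against 0.263% of all genes. Adamts1 and Mmp2 stood at -0.98 and 0.998, both short of 2-fold.

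Grouped by the mouse cassettes, the members did not move as one. The 10 pan-reactive members had medians of 0.04 with IFN-γ, -0.10 with GW and -0.04 with SHP siRNA, and 1 of them reached 2-fold, S1pr3 with IFN-γ. The 5 measured A1 members had medians of -0.09, -0.25 and 0.10 in those comparisons, and 1 reached 2-fold, Srgn with GW. With GW 4 of the 5 were below 0, all but Ggta1, and with SHP siRNA all 5 were above 0. The 7 measured A2 members had a median of 0.02 with IFN-γ, 0.57 with GW and -0.53 with SHP siRNA. Among them, Ptx3 was at least 2-fold higher with IFN-γ and with GW and at least 2-fold lower with SHP siRNA. Slc10a6 was at least 2-fold lower with IFN-γ. Over all genes past the filter, 1.9% reached 2-fold with IFN-γ, 1.91% with GW and 0.407% with SHP siRNA. With GW 6 of the 7 were above 0, all but Tm4sf1, and with SHP siRNA all 7 were below 0, from Ptx3 at -1.23 to Tgm1 at -0.08. Over all genes, 42.1% were above 0 with GW and 51.5% were above 0 with SHP siRNA. The A2 genes outside the list did not all follow, since Cd14 stood at -1.25 with GW and 0.45 with SHP siRNA and S100a10 at -0.38 and -0.01, while Clcf1 (1.09 and -0.49) and Ptgs2 (0.93 and -0.46) had the signs of the members. Tgm1 and B3gnt5 are below the table median, and the sign of Tgm1 with GW turned after quantile normalization and cyclic loess. Both comparisons use the array with control siRNA, IFN-γ and GW. Between arrays that leave it out, the 7 had a median of 0.15 in SHP siRNA with both agents against IFN-γ alone, with 4 above 0 and 3 below. Of the 5 A1 members, 2 were above 0 and 3 below there.

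**Figure D4:**
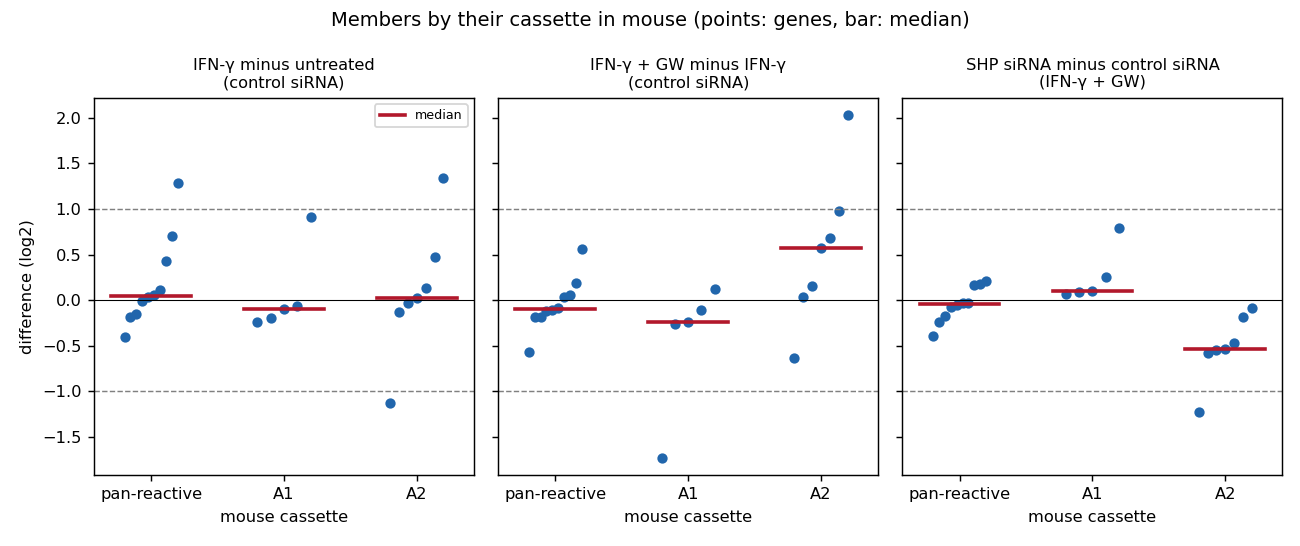
Difference (log2, vertical axis) of the measured members of 3 mouse cassettes in the 3 main comparisons, 1 point per gene, with red bars at medians and dashed lines at 2-fold. The A2 median is 0.57 with GW and -0.53 with SHP siRNA, and the A1 median is -0.25 and 0.10. The pan-reactive medians lie between -0.10 and 0.04.

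Cassette genes outside the list included some of larger difference. Of 10, 2 were at least 2-fold higher with IFN-γ, the prostaglandin synthesis gene Ptgs2 (2.68) and the chemokine gene Cxcl10 (1.65), with 0 lower and a median of 0.46. Over all genes past the filter, 1.61% were higher and 0.288% lower. With GW 1 was at least 2-fold higher, the cytokine gene Clcf1 (1.09), and 2 lower, the lipopolysaccharide co-receptor gene Cd14 (-1.25) and Cxcl10 (-1.19). All genes gave 0.958% higher and 0.95% lower there. With SHP siRNA 0 of the 10 reached 2-fold, where 0.407% of all genes did. The lowest of the 10 was Hspb1, a small heat shock protein gene, at -0.65.

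Among genes of cytokines and factors that induce reactivity, some differed more than most members. Of 10 such genes, 5 were at least 2-fold higher with IFN-γ: Il6 (3.73), Tnf (3.18), Il1a (2.83), Il1b (1.92) and Lif (1.80). Over all genes past the filter, 1.61% were. C1qa, C1qb, C1qc and Tgfb1 lay below 0, from -0.30 to -0.14. The median of the 10 was 1.18, against -0.04 over the 31 members, in a list chosen with earlier results of these data known. With GW 2 of the 10 were at least 2-fold lower, Il1b (-1.94) and Il1a (-1.43), where 0.95% of all genes were. With SHP siRNA 1 was, Lif (-1.19), where 0.263% of all genes were. Among 12 receptors and transcription factors, Nfkb1 was at least 2-fold higher with IFN-γ (1.08). With GW 3 of the 12 were at least 2-fold higher, where 0.958% of all genes were. These were Socs3, the feedback inhibitor of STAT3 signalling (1.76), the serum response factor gene Srf (1.01) and Cebpb, which encodes a factor of acute-phase genes (1.00). Stat3 itself stood at 11.30 with SHP siRNA, IFN-γ and GW, 11.34 with IFN-γ and GW, 11.41 with IFN-γ and 10.83 untreated, under 2-fold throughout.

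Differences with no array in common can be set side by side across members, which are genes and not independent replicates, and 3 such pairs exist. IFN-γ minus untreated and SHP siRNA minus control siRNA gave a Pearson r of -0.12 over 31 members and 0.23 without Ptx3, against 0.15 over 11790 genes. SHP siRNA with both agents minus untreated, and GW added to IFN-γ, gave 0.57 over the members and 0.26 without Ptx3, against 0.40 over all genes, so that value rests in large part on Ptx3. The pair of IFN-γ and GW minus untreated with SHP siRNA and both agents minus IFN-γ gave 0.63, 0.50 without Ptx3 and 0.54 over all genes.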

How the data were processed

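Gene expression was measured in 4 cultures with 1 single-colour array each. The authors deposited 1 value per probe and array, taken here as log2 signal because values run from 1.14 to 13.4. Not given in the sources used here are the log base, background correction, probe summary and normalization. Per the labels' protocols, RNA was extracted with Trizol and fragmented sense cDNA was labelled with biotin. Of 29489 probes, 18511 had 1 gene symbol, 575 had several and 10403 had none, and 18394 took their current symbol from RefSeq (GRCr8) by Entrez identifier.

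The probe with the highest mean stood for a gene. Genes whose highest value reached the table median of 5.83 were kept. Each comparison is a difference of 2 arrays, called at 2-fold, with no test, since 1 array per group allows none, so precision is limited by having 4 arrays. The count step was tested on simulated data with set changes well beyond 2-fold and small independent noise. That checks the counting and says nothing on how reliable the calls are. All members are named. Genes outside the list are named where they reached 2-fold in a main comparison, cell type markers as counts with a few defining genes, and some genes recur between lists. Beyond that rule, some outside genes under 2-fold are named, among them Hspb1, Stat3, Cfb, C3ar1, Tgfb1, Adamts1 and Mmp2. A2 genes and markers under 2-fold were added after their values were seen. The members and lists were chosen with earlier results of these data known. Tools were Python 3.11.15, R 4.3.3 and limma 3.58.1.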

Additional observations from a re-analysis of the deposited data

How the results depend on the processing

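Cyclic loess, quantile normalization, median centring, a filter on the mean, no filter, the mean of a gene's probes, and 1.5-fold and 3-fold thresholds were tried. All 6 member differences of at least 2-fold kept their direction and size class under the 3 scalings. Each measured member had 1 probe, so the mean of a gene's probes leaves member values unchanged and is no check on them. The 372 recomputed member differences include those of the mean of probes, which could not move. Of the 372, 8 turned sign, all of size 0.11 or less, and 1 crossed 2-fold. Median centring put Sphk1 at 1.06 with GW, so that 2 members were at least 2-fold higher there. At 1.5-fold, 4 members were higher with IFN-γ, 3 higher and 4 lower with GW, and 1 higher with SHP siRNA. At 3-fold, 0 were higher or lower with IFN-γ and 0 lower with SHP siRNA. Over the 28 members past the filter, the IFN-γ median of -0.03 was 0.0072 after cyclic loess and 0.10 as a mean, and the GW median of -0.11 was -0.00019 after cyclic loess. Over all genes, the counts at least 2-fold higher and lower with SHP siRNA were 27 and 48 with no filter, against 17 and 31. At 1.5-fold the higher and lower counts over all genes were 356 and 187 with IFN-γ, 332 and 586 with GW, and 168 and 142 with SHP siRNA, and at 3-fold 80 and 2, 50 and 26, and 1 and 4. The cause of the shifts in medians was not tested. No paired analysis was possible because each group has 1 array. No replicate could be left out.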
